A study of Mus musculus with 6 samples.

Results

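Cd74 and the MHC class II genes were followed in BV2, a mouse microglial line kept in culture after immortalization. The set was given by name. It holds the invariant chain gene Cd74, the transactivator gene Ciita, the classical class II genes H2-Aa, H2-Ab1 and H2-Eb2, and the non-classical genes H2-DMa, H2-DMb1, H2-DMb2, H2-Oa and H2-Ob. All probes whose transcript accession belonged to these symbols were taken, which gave 12 probes for 10 genes out of 39429 probes for 32451 genes or unnamed transcripts on the array.

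The cells had been given recombinant mouse IL-4 at 10 ng/ml for 24 hr (3 samples) or PBS for 24 hr (3 samples). The series' own design text calls the control untreated. The sample descriptions also mention human blood, which does not match the organism and line given in the other labels. Each sample had its own Agilent array, read in 1 colour, and both groups share the same line, medium and poly-L-lysine coating. Whether samples were grown as separate cultures is not in the labels, so p-values here cover only sample-to-sample spread, possibly technical. The 3 IL-4 arrays and PBS replicate 1 shared slide 1, while slide 2 held PBS replicates 2 and 3, so that treatment and slide overlap in part.

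MHC class II molecules are pairs of an alpha and a beta chain that carry peptides from endosomes to the cell surface, where CD4 T cells read them. The invariant chain CD74 binds new class II pairs, blocks their groove and guides them to endosomes, where proteases cut it down to a short remnant, CLIP. The DM molecule then exchanges CLIP for antigen peptides, and the DO molecule restrains DM. Transcription of most, though not all, of these genes depends largely on CIITA, which is recruited by factors bound to the X and Y boxes of promoters. Interferon gamma is the classical inducer of class II in microglia. CD74 also reaches the cell surface without class II and serves there as a receptor of the cytokine MIF.

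On each array 34653 to 38649 of 39429 probes were well above background and 0 spots were saturated. Precision is limited by how few arrays there are. Levels below are log2 processed signals minus the array's 75th percentile, differences are on the same log2 scale, and calls were made in limma's moderated test of IL-4 minus PBS, with Benjamini-Hochberg adjustment over all 29752 tested genes or transcripts and a threshold of 0.05. Of the microglia and macrophage marker list, 11 of 12 genes were tested and all 11 were well above background on every array. Their summed level was 5.65 to 5.80 with IL-4 and 5.83 to 6.18 with PBS. Of the 11, 3 were called lower (Aif1, Tyrobp and Lyz2) and 0 higher, against 2.54% and 0.807% of all tested genes. With slide as a block Aif1, Tyrobp and Lyz2 were not called (limma adjusted p = 0.233, 0.225 and 0.227). At an unadjusted p under 0.05 in limma, 8 of the 11 were lower and 0 higher, with a median log2 fold change of -0.42 over all arrays and -0.25 within slide 1. The share of all tested genes at this unadjusted level was not counted. Such counts, here and below, therefore have no background beside them and show no excess in a list. Of the 8 dendritic cell markers 0 were called, and the summed level was 1.03 to 1.13 with IL-4 and 1.07 to 1.30 with PBS. Of 6 tested B cell markers 0 were called, and the summed level was 0.80 to 0.90 with IL-4 and 0.40 to 0.74 with PBS. Cr2 made up most of that sum (mean 0.22 with IL-4 and -0.28 with PBS), and the other B cell markers were far dimmer. Of 5 tested T cell markers 0 were called and 3 were higher at an unadjusted p under 0.05 in limma, with a median log2 fold change of 0.91 over all arrays and 0.24 within slide 1, and the summed level of 4 of them was 1.64 to 1.76 with IL-4 and 1.22 to 1.47 with PBS. That of 2 of 3 tested astrocyte markers was -1.27 to -1.18 with IL-4 and -1.38 to -1.32 with PBS, and that of 4 neuron markers 0.93 to 1.19 with IL-4 and 0.54 to 0.79 with PBS. The brightest T cell and astrocyte markers, Cd4 and Aqp4, lacked a value on 1 array each and are outside these sums. Cd4 lay at 2.96 to 3.28 with IL-4 and 1.04 to 2.32 with PBS, Aqp4 at 3.17 to 4.11 and 3.33 to 3.83. Snap25 made up most of the neuron sum (mean 0.85 with IL-4 and 0.46 with PBS), and the other neuron markers were far dimmer. None of the tested astrocyte and neuron markers was called, with 1 of each list higher at an unadjusted p under 0.05. Of dendritic and B cell markers, 3 were higher and 1 lower at that level. Every sample title names BV2 cells, so no mixture of cell types was part of the design, and these marker levels are not shares of such a mixture. Whether other cells were present was not tested. In a bulk sample of a single line, fewer cells that express a gene and less RNA per cell cannot be told apart.

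Cd74 was the single gene of the set that passed the test. It rose 1.78-fold with IL-4, while its partners of the classical class II molecule stayed dim and did not pass, and the Ciita signal was not higher. Of the 10 genes, 1 was called higher, against 0.807% of all tested genes (240), and 0 were called lower, against 2.54% (757). With normexp correction of the median signal and the same scaling, the calls over all genes were 2032 higher and 2026 lower. At an unadjusted p under 0.05, 2 were higher and 2 lower in the same limma fit. The share of all tested genes at that level was not counted, so this count is not set apart from the background. H2-Oa, at an unadjusted p of 0.0505 in limma, had an adjusted p of 0.147, so values near this level were common over all genes. The median log2 fold change was 0.01 over the 10 genes and -0.05 over all tested genes. All 10 genes were well above background on all 6 arrays by their brightest probe.

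Cd74 signal was 1.29, 1.18 and 1.26 in IL-4 replicates 1 to 3, against 0.16, 0.46 and 0.61 in PBS replicates 1 to 3. All 3 IL-4 arrays lay above all 3 PBS arrays, and the IL-4 values were close together. As processed signal, before scaling, these were 1778, 1939 and 1761 with IL-4 and 976.1, 927.2 and 1108 with PBS. Cd74 averaged 1.24 ± 0.06 with IL-4 and 0.41 ± 0.23 with PBS (SD, n = 3 each), a log2 fold change of 0.84 ± 0.13 (SE; limma adjusted p = 0.0327, 95% interval 0.53 to 1.14). PBS replicate 1 was the lowest of the PBS arrays, 0.38 under the mean of the other PBS arrays. The difference within slide 1 was therefore larger, at 1.09 or 2.13-fold, but it rests on a single PBS array, and with slide as a block the limma adjusted p was 0.0715. The call was also lost when any array other than PBS replicate 1 was left out. Without IL-4 replicate 1, 2 or 3 the limma adjusted p was 0.143, 0.12 and 0.138 at log2 fold changes of 0.81, 0.87 and 0.83. Without PBS replicate 2 or 3 it was 0.153 and 0.107 at 0.86 and 0.94, and without PBS replicate 1 it was 0.00197 at 0.71. Leaving out PBS replicate 1 leaves no PBS array of slide 1, so treatment and slide coincide there.

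**Figure D1:**
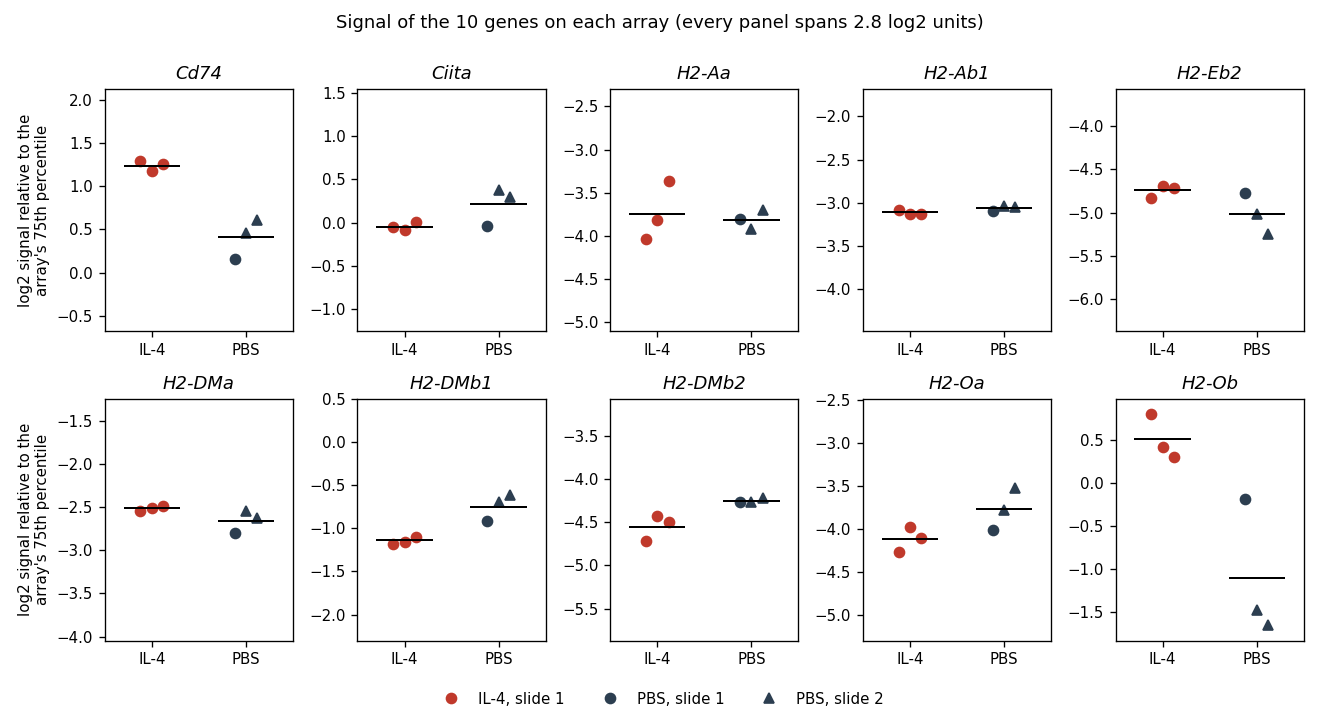
Log2 signal scaled to the array's own 75th percentile, for the brightest probe of each of the 10 genes, with IL-4 left of PBS. Each point is an array, bars are group means, circles mark slide 1 and triangles slide 2. Cd74 is higher on all 3 IL-4 arrays (1.18 to 1.29) than on the PBS arrays (0.16 to 0.61), while PBS replicate 1 of H2-Ob (-0.18) stands nearer to the IL-4 arrays than to the other PBS arrays.

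Ciita encodes the transactivator without which most class II transcription does not start. Its probe gave -0.05, -0.09 and 0.01 in IL-4 replicates 1 to 3, against -0.04, 0.38 and 0.30 in PBS replicates 1 to 3. PBS replicate 1 lay among the IL-4 arrays and the other PBS arrays above them. The log2 fold change was -0.26 ± 0.13 (SE; limma adjusted p = 0.197, 95% interval -0.56 to 0.04), and within slide 1 the difference was -0.0039. Ciita was called lower without PBS replicate 1 (log2 fold change -0.38, with no PBS array of slide 1 left in the comparison). The difference between Cd74 and Ciita on the same array was 1.29 with IL-4 and 0.20 with PBS. It changed by 1.09 ± 0.07 (SE), and by 1.09 within slide 1. An exact two-sided permutation test over the 6 arrays gave p = 0.10, the smallest that 3 against 3 arrays allow, so the unequal change could not pass at 0.05.

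The RefSeq promoter table (build GRCm38.p6) held 8 windows for 7 of the 10 genes, 2 of them for H2-DMa, from 250 bases before to 50 bases after the start, and none for Cd74, Ciita and H2-Ab1. Each window was searched on both strands for the core of the Y box, ATTGG, and for an X box written as CCNAG and ACNNATG with 2 bases between them. The Y box core was in 7 of the 8 windows, against 37.4% of all 32851 windows in the table. The window without it was 1 of the 2 of H2-DMa. In the other H2-DMa window the match began 198 bases before the start, against 43 to 100 bases in the other genes. The X box letters were in 2 of 8, those of H2-DMb1 and H2-Ob, against 0.195% of all windows. A STAT6-type motif, TTC and GAA with 4 bases between them, was in 0 of 8 windows, against 6.95% of all. The 4 windows below show where these letters lie in a classical gene, in the paired DM beta genes and in H2-Ob, the gene of the set with the widest difference over all 6 arrays (within slide 1 it is Cd74). The X box letters are in 2 of the 4. Capitals mark the matches, with the X box first where there is one, and the sequences run 5′ to 3′ on the strand of the gene. They lie at chr17:34287774-34288073 on the minus strand for H2-Aa, and on the plus strand at chr17:34152941-34153240 for H2-DMb1, chr17:34144999-34145298 for H2-DMb2 and chr17:34238655-34238954 for H2-Ob.
H2-Aa: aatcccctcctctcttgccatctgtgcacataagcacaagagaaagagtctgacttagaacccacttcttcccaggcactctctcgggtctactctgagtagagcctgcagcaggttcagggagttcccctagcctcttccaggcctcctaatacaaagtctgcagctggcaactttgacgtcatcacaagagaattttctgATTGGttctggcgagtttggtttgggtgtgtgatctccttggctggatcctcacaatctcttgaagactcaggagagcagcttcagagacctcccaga
H2-DMb1: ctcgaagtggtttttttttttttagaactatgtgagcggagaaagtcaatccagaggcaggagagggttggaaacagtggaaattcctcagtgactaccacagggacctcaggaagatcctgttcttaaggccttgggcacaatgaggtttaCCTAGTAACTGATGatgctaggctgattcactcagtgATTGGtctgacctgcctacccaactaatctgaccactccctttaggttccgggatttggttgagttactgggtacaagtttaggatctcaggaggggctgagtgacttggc
H2-DMb2: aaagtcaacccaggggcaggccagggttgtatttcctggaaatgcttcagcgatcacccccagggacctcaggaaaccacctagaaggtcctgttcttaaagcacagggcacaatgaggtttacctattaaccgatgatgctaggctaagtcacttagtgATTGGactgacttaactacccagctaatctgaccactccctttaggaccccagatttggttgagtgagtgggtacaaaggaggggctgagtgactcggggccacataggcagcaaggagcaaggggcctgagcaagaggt
H2-Ob: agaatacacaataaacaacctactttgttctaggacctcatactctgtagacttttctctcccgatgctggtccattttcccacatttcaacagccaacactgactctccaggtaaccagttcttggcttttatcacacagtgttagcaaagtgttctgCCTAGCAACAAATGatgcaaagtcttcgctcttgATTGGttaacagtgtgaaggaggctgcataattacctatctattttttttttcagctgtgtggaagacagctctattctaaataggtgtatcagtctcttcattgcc
The Y box core began 61 bases before the start in H2-DMb1 and 57 in H2-Ob, with the X box at 98 and 91 bases. In H2-Aa and H2-DMb2 the core began 48 and 90 bases before the start, and the X box letters as written did not match. A match is a run of letters and no measured binding.

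The classical class II genes were dim and none was called. H2-Aa encodes the alpha chain and H2-Ab1 the beta chain of the I-A molecule. H2-Aa gave -4.04, -3.81 and -3.36 in IL-4 replicates 1 to 3, against -3.80, -3.92 and -3.70 in PBS replicates 1 to 3. The groups overlapped, and IL-4 replicate 3 was the highest array. H2-Aa had a log2 fold change of 0.07 ± 0.17 (SE; limma adjusted p = 0.793), with a 95% interval of -0.33 to 0.47, and it turned to -0.12 without IL-4 replicate 3. The brighter probe of H2-Ab1 gave -3.08, -3.13 and -3.13 with IL-4, against -3.10, -3.04 and -3.05 with PBS. All 6 arrays lay within 0.1 of each other on that probe. It differed by -0.05 ± 0.09 (limma adjusted p = 0.728), and its 95% interval of -0.26 to 0.17 does not reach the size measured for Cd74. The dimmer H2-Ab1 probe gave -0.19 ± 0.10 and was not called (limma adjusted p = 0.207 over all tested probes). On it the groups did not overlap, at -3.49 to -3.47 with IL-4 and -3.35 to -3.18 with PBS. Within slide 1 the differences were 0.06 for H2-Aa, -0.01 for the brighter H2-Ab1 probe and -0.15 for the dimmer.

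H2-Eb2 encodes a second beta chain of the I-E type. It gave -4.83, -4.69 and -4.71 in IL-4 replicates 1 to 3, against -4.77, -5.01 and -5.25 in PBS replicates 1 to 3. PBS replicate 1 lay within the IL-4 range and the slide 2 arrays below it. H2-Eb2 differed by 0.27 ± 0.14 (SE; limma adjusted p = 0.202) and 0.03 within slide 1. H2-Eb1, the main I-E beta chain and outside the set, had a probe that was well above background on IL-4 replicates 2 and 3 and PBS replicate 1 only. It was therefore not tested. Its processed signal was 16.1, 34.8 and 27.4 with IL-4, against 30.4, 6.7 and 11.5 with PBS.

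**Figure D2:**
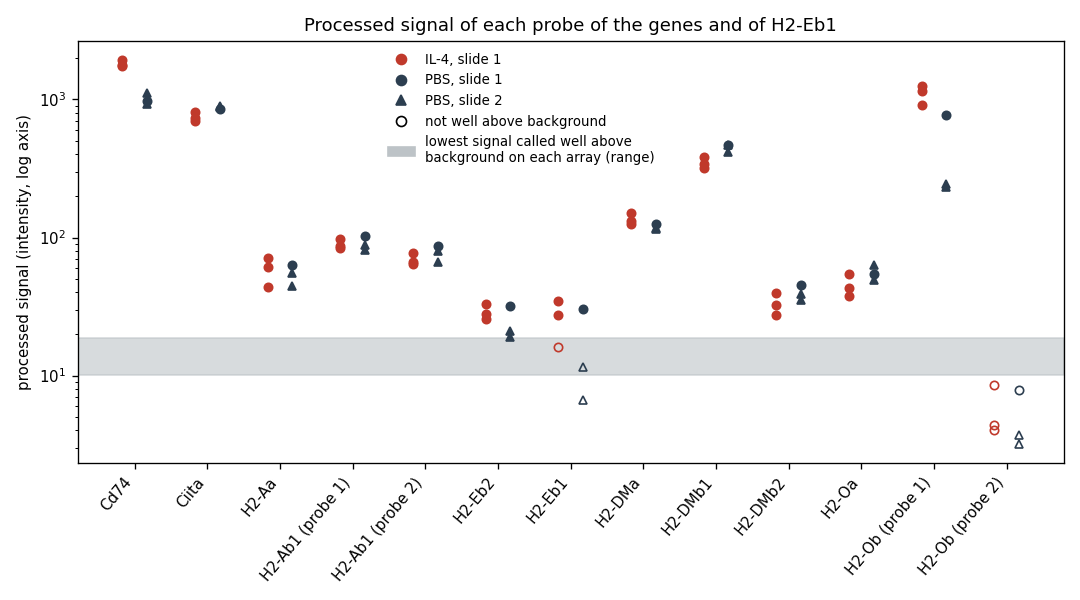
Processed signal of every probe of the 10 genes and of H2-Eb1 on a log axis, with IL-4 left of PBS for each probe. Open symbols are not well above background, and the grey band spans the lowest signal called well above background on the 6 arrays (10.2 to 18.7). Each probe is to be read against the band, since probes differ in how brightly they bind. The second probe of H2-Ob lies below the band on all 6 arrays, and H2-Eb2 lies just above it.

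None of the DM genes was called, at log2 fold changes of -0.40 to 0.14. H2-DMa encodes the alpha chain of DM, the peptide exchanger. It gave -2.54, -2.51 and -2.49 in IL-4 replicates 1 to 3, against -2.80, -2.54 and -2.62 in PBS replicates 1 to 3. The IL-4 arrays lay above the PBS arrays, but IL-4 replicate 1 exceeded PBS replicate 2 by less than the rounding of these values. The log2 fold change was 0.14 ± 0.11 (SE; limma adjusted p = 0.358) and 0.29 within slide 1. H2-DMb1, a beta chain of DM, gave -1.18, -1.16 and -1.10 with IL-4, against -0.91, -0.70 and -0.62 with PBS. All IL-4 arrays lay below all PBS arrays. H2-DMb1 differed by -0.40 ± 0.11 (limma adjusted p = 0.0641, 95% interval -0.65 to -0.14) and -0.23 within slide 1. Without PBS replicate 1 it was called lower, at -0.48 (limma adjusted p = 0.00586).

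H2-DMb2, the other beta chain of DM, gave -4.72, -4.43 and -4.50 in IL-4 replicates 1 to 3, against -4.27, -4.26 and -4.22 in PBS replicates 1 to 3. Here too the groups did not overlap, with the PBS arrays close together. H2-DMb2 differed by -0.30 ± 0.11 (SE; limma adjusted p = 0.104) and -0.28 within slide 1. H2-DMb1 and H2-DMb2 are close copies of each other. The probe sequences were not used here, so how far each probe binds the other transcript was not tested.

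H2-Oa and H2-Ob encode the alpha and beta chains of DO, the restrainer of DM, and their values ran opposite ways. H2-Oa gave -4.26, -3.98 and -4.10 in IL-4 replicates 1 to 3, against -4.01, -3.78 and -3.52 in PBS replicates 1 to 3. The groups overlapped through PBS replicate 1. H2-Oa differed by -0.34 ± 0.15 (SE; limma adjusted p = 0.147) and -0.10 within slide 1. The bright probe of H2-Ob gave 0.80, 0.42 and 0.30 with IL-4, against -0.18, -1.47 and -1.65 with PBS. All IL-4 arrays lay above all PBS arrays, but the PBS arrays fell apart by slide, with PBS replicate 1 standing 1.38 above the mean of the other PBS arrays. H2-Ob averaged 0.51 ± 0.26 with IL-4 and -1.10 ± 0.80 with PBS (SD, n = 3 each).

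The log2 fold change of H2-Ob was 1.61 ± 0.36, a 3.04-fold difference that just missed the threshold (SE; limma adjusted p = 0.0511, 95% interval 0.78 to 2.43). Within slide 1 it was 0.68, or 1.61-fold, and with slide as a block the limma adjusted p was 0.323. Without PBS replicate 1 it was called, at 2.07 (limma adjusted p = 0.00033). A second probe of the same H2-Ob transcript was not well above background on any array, with processed signals of 4.0, 4.4 and 8.6 in IL-4 replicates 1 to 3 and 7.9, 3.7 and 3.2 in PBS replicates 1 to 3, while the bright probe gave 1260, 1149 and 904.8 with IL-4 and 775.5, 243.4 and 230.9 with PBS. The probes therefore disagree on whether the transcript is detected, and H2-Ob values stand for the bright probe alone.

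**Figure D3:**
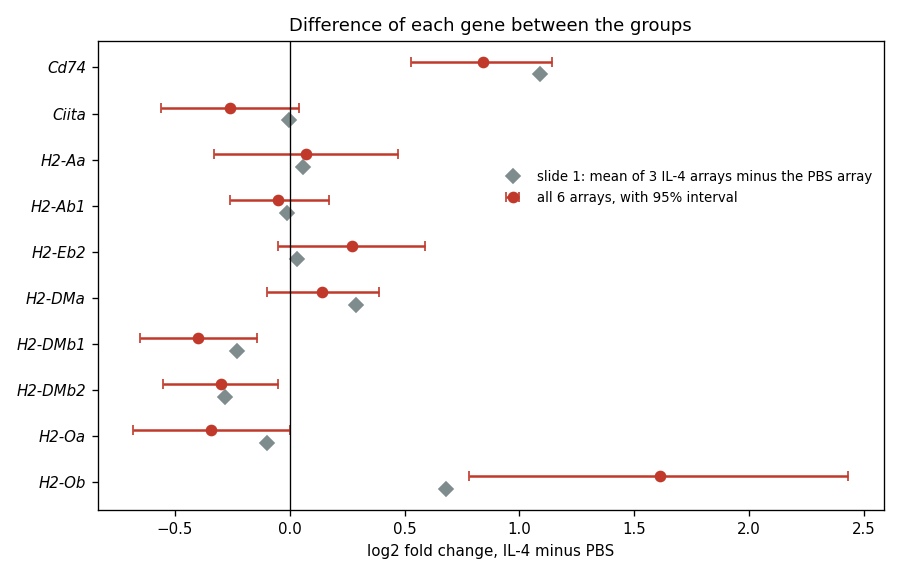
Log2 fold change of IL-4 minus PBS for the 10 genes. Circles show all 6 arrays with the 95% interval of the limma fit, and diamonds the mean of the 3 IL-4 arrays minus PBS replicate 1 on the same slide. Cd74 is at 0.84 over all arrays and 1.09 within slide 1, and H2-Ob at 1.61 and 0.68.

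By the brightest probe of each gene, the groups did not overlap for 3 genes that were higher with IL-4 (Cd74, H2-DMa and H2-Ob). The same held for 2 that were lower (H2-DMb1 and H2-DMb2). Of all tested genes, 18.7% were higher and 19.8% lower without overlap, so the members' share lies near this background. Within slide 1, 5 of the 10 genes were higher and 5 lower, with a median of 0.01, against 0.01 over all tested genes. PBS replicate 1 lay below the mean of the other PBS arrays for 7 genes and above it for 3. Without this array limma called 3 genes higher (Cd74, H2-Ob and H2-Eb2) and 3 lower (Ciita, H2-DMb1 and H2-Oa), but also 5812 of all genes higher and 6842 lower. With slide as a block 0 of the 10 genes were called in either direction, where 0.0202% of tested genes were called higher and 0.0101% lower. On slide 1 alone 0 were called as well, where limma called 0.00336% of tested genes higher and 0.0% lower.

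The change of Cd74 was set against that of each of the 9 other genes on the same arrays. It exceeded that of 8 of them by 0.57 (H2-Eb2) to 1.23 (H2-DMb1) on the log2 scale, with an exact two-sided permutation p of 0.10 for each of these 8 pairs, 0.11 after adjustment over the 9 pairs. For H2-Ob the change of Cd74 was smaller by 0.77 over all arrays (SE 0.61, exact permutation p = 0.40) and larger by 0.41 within slide 1. Within slide 1 the change of Cd74 exceeded that of all 9, by 0.41 to 1.37.

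The class II genes lie side by side on mouse chromosome 17, and the annotation lists 15 genes from H2-Oa to H2-Eb2. Of these 13 were tested, 5 of them outside the set, and 0 of the 13 were called. Over all tested genes, 0.807% were called higher and 2.54% lower. The outside genes, picked by position after first values were seen, were Brd2, a chromatin reader, Tap1 and Tap2, which pump peptides for class I, and the immunoproteasome genes Psmb8 and Psmb9. Tap2, the nearest tested gene on the near side of H2-Ob in this order, had a log2 fold change of -0.02 ± 0.10 (SE), and H2-Ab1, the nearest beyond it, -0.05 ± 0.09. The outside genes farther from H2-Ob differed more, Brd2 by 0.41 ± 0.10 (limma adjusted p = 0.054) and Psmb9 by -0.41 ± 0.13 (0.0777). Psmb8 differed by -0.26 ± 0.12 and Tap1 by -0.21 ± 0.11. PBS replicate 1 differed from the mean of the other PBS arrays by -0.15 for Tap2 and -0.05 for H2-Ab1, against 1.38 for H2-Ob.

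Among the factors that build the class II promoter complex, 1 of 10 tested genes was called, and it was lower. Over all tested genes, 0.807% were called higher and 2.54% lower. No list was tested as a set. Rfxap, a subunit of the RFX complex on the X box, fell by 0.75 on the log2 scale (SE 0.13, limma adjusted p = 0.0373). Its levels were -3.19, -3.03 and -3.02 in IL-4 replicates 1 to 3, against -2.58, -2.20 and -2.20 in PBS replicates 1 to 3, with no overlap. Within slide 1 it differed by -0.50, and with slide as a block the limma adjusted p was 0.233. The brightest genes of the list that did not pass were Crebbp at 0.20 ± 0.10, Nfyc at 0.26 ± 0.12 and Ep300 at -0.07 ± 0.10. The median of the list was -0.17, against -0.05 over all tested genes. The 8 genes of the related lists that were called, Rfxap among them, kept their calls without PBS replicate 1 (limma adjusted p of 0.000355 to 0.00404). Treatment and slide coincide in that fit, which called 5812 of all genes higher and 6842 lower, so a kept call there adds little. All 8 lost them when any of the other 5 arrays was left out (0.104 to 0.195).

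In the interferon gamma route to Ciita, 1 of 14 genes rose and 2 fell, against 0.807% and 2.54% of all tested genes. Socs1, which shuts off JAK signalling from cytokine receptors, rose by 1.17 ± 0.14 (SE; limma adjusted p = 0.0252) and by 0.89 within slide 1. Ifngr2, a chain of the interferon gamma receptor, fell by 0.59 on the log2 scale (SE 0.12, limma adjusted p = 0.0485). The difference within slide 1 was -0.36. Irf8, a myeloid transcription factor, fell by 0.67 (SE 0.12, limma adjusted p = 0.0395), with a difference of -0.48 within slide 1. With slide as a block the limma adjusted p was 0.126 for Socs1, 0.338 for Ifngr2 and 0.277 for Irf8. The other receptor chain gene, Ifngr1, differed by -0.54 ± 0.14 (limma adjusted p = 0.0603), Jak1 by -0.20 ± 0.11 and Irf1 by -0.23 ± 0.16. Prdm1, a repressor of Ciita named here after its values were seen, was split by slide like H2-Ob. Its levels were 1.81, 1.60 and 1.68 with IL-4, against 1.36 in PBS replicate 1 and 0.12 and 0.00 in the slide 2 arrays, and it did not pass (limma adjusted p = 0.0626).

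None of 13 genes that cut antigen and invariant chain in endosomes was called. Ctss, the protease that makes the last cuts in the invariant chain, differed by 0.11 ± 0.11 (SE), Ctsb by 0.01 ± 0.11 and the chaperone gene Hspa8 by 0.33 ± 0.11 (limma adjusted p = 0.484, 0.943 and 0.0801). At an unadjusted p under 0.05 in the same limma fit, 2 genes of this list were higher and 3 lower, again without the share of all genes. The signs of Ctss and Ctsb turned under quantile normalization. Of 15 genes of class II traffic and turnover, 0 rose and 2 fell, against 0.807% and 2.54% of all tested genes. Cd83, which protects surface class II from MARCH1, a ubiquitin ligase, fell by 0.94 on the log2 scale (SE 0.19, limma adjusted p = 0.045) and differed by -0.58 within slide 1. Cd81, a tetraspanin, fell by 0.77 (SE 0.12, limma adjusted p = 0.0289) and differed by -0.64 within slide 1. With slide as a block neither was called (limma adjusted p = 0.359 and 0.204). Cltc, Cd63 and Cd9, the brightest of the genes that did not pass, differed by 0.16 ± 0.11, 0.34 ± 0.11 and 0.23 ± 0.11.

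For the role of CD74 as a MIF receptor, 5 genes were tested and 1 fell, against 2.54% of all tested genes. Cxcr4, which pairs with CD74 at the surface, fell by 0.72 on the log2 scale (SE 0.12, limma adjusted p = 0.0349), at -2.02, -2.03 and -2.21 with IL-4 against -1.55, -1.23 and -1.31 with PBS. Within slide 1 it differed by -0.54, and with slide as a block the limma adjusted p was 0.227. Cd44, the signalling partner of CD74, differed by 0.75 ± 0.23 over all arrays but by 0.17 within slide 1 (limma adjusted p = 0.0717 over all). Mif differed by -0.15 ± 0.12 and its relative Ddt by -0.58 ± 0.15 (limma adjusted p = 0.403 and 0.0596).

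Class I presentation gave no calls among 18 tested genes, with a median of -0.09. B2m differed by -0.07 ± 0.10, H2-K1 by 0.20 ± 0.11 and Psme2 by -0.11 ± 0.11 (SE). At an unadjusted p under 0.05 in the same limma fit, 0 genes of this list were higher and 1 lower, again without the share of all genes. Of 7 molecules that meet T cells beside class II, 1 was called higher and 0 lower, against 0.807% and 2.54% of all tested genes. Cd40, a co-stimulatory receptor, rose by 0.84 ± 0.13 (limma adjusted p = 0.0321) and the other 6 did not pass. Within slide 1 it differed by 1.01, and with slide as a block the limma adjusted p was 0.126. Cd80, Cd86 and Cd274 differed by -0.05 ± 0.13, -0.04 ± 0.09 and -0.10 ± 0.12.

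**Figure D4:**
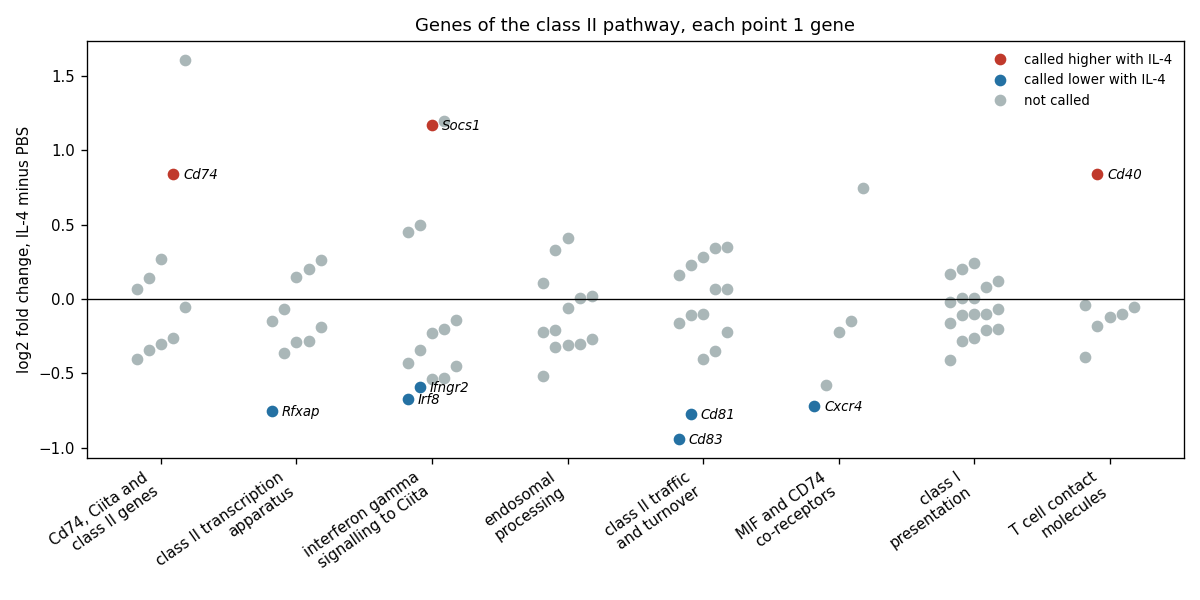
Log2 fold change of IL-4 minus PBS over all 6 arrays for the 10 genes (first column) and for each tested gene of 7 related lists. Red points were called higher, blue points lower and grey points not called, and called genes are named. Cd74 at 0.84, Socs1 at 1.17 and Cd40 at 0.84 are the called rises, and Cd83 at -0.94 is the lowest point.

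Of 19142 other named genes, the 5 with profiles nearest to that of Cd74 were Ptgs2, Tfec, Ccl2, Cd40 and a gene known only by a clone name, which is passed over here. Nearness was the mean absolute difference over the 6 arrays between profiles centred on their means, and it was 0.057 for Ptgs2 and 0.107 for Cd40. Their log2 fold changes were 0.76 for Ptgs2, the inducible prostaglandin synthase, 0.78 for Tfec, a macrophage transcription factor, 0.93 for the chemokine gene Ccl2 and 0.84 for Cd40. These 4 were lowest in PBS replicate 1, as Cd74 was, and since they were picked for their likeness over the same arrays, these values describe the choice. Of genes that mark the IL-4 signal itself, Arg1 rose by 2.02 ± 0.16 and Cish by 1.07 ± 0.11 (SE; limma adjusted p = 0.011 and 0.0228), by 2.29 and 1.18 within slide 1. With slide as a block Arg1 was called and Cish was not (limma adjusted p = 0.0316 and 0.0725). The receptor gene Il4ra and Stat6, its transcription factor, differed by 0.32 ± 0.18 and -0.28 ± 0.14 and did not pass (limma adjusted p = 0.233 and 0.192).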

How the data were processed

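Labelled RNA from 6 BV2 samples was hybridised to single-colour Agilent mouse arrays. Intensities were deposited as scanner output of Feature Extraction 11.0.1.1, which had subtracted background and detrended each array, per the file headers. The deposited series also holds a table of log2 values normalized by the authors. Its column medians were all 6.92 and its columns correlated at 0.9991 to 0.9996 with that array's own log2 processed signal. Its normalization is not stated in what was used here, and it served as an alternative only.

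Control spots and outlier-flagged spots (87 to 394 an array) were left out, spots of a probe were averaged, and the log2 processed signal was taken minus each array's 75th percentile. A probe was tested where all arrays of 1 or both groups showed it well above background, and each gene was represented by its brightest such probe. Probes were named through RefSeq accessions (27234 of 39429 probes). The array's annotation build is mm9, while the RefSeq table is of GRCm38.p6, so coordinates are given for promoter windows only. IL-4 was compared with PBS over all 6 arrays with limma 3.58.1 in R 4.3.3 (lmFit, eBayes), adjusted by Benjamini-Hochberg over 29752 genes or transcripts at a threshold of 0.05. The limma fit was also run on simulated data with independent noise and no slide effect, so that run does not bear on the overlap of treatment and slide. Cd74 was set against each other gene with an exact permutation test over arrays.

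The genes and lists were chosen with earlier results of these data known. Every gene of the set is named. Of each related list, all called genes and up to 3 uncalled genes, the brightest over all arrays, are named, with the 5 genes nearest to Cd74 and Il4ra, Stat6, Socs1, Cish and Arg1. Names that are only a clone or gene model are passed over. Il4ra, Stat6 and the others serve as IL-4 response values. The neighbouring genes on chromosome 17, Prdm1 and the markers of other cell types are given beside them.

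Replicate numbers are shared by both groups. Deviations from the group means correlated at 0.083, -0.016 and 0.296 for same-numbered arrays, and at -0.19 to 0.064 for arrays of unlike number. These values do not settle whether the numbers mark pairs. The main fit did not take them as pairs, and a replicate block was an alternative. Alternatives covered background correction (normexp with offset 50 on the median signal, since the files hold no mean signal column), scaling, filters, probe summary, slide, replicate block, variance model and leaving out each array. Promoter windows came from a RefSeq table. Probe sequences and proteins were not used here.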

Additional observations from a re-analysis of the deposited data

How the results depend on the processing

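Over 22 alternatives Cd74 kept its direction in all and its call in 14, at log2 fold changes of 0.71 to 1.09. The call was lost with no filter on dim probes (adjusted p 0.0647), with slide as a block (0.0715), on slide 1 alone (0.18) and without any array other than PBS replicate 1. H2-Ob kept its direction in all 22 and was called in 10, at 0.68 to 2.07. Of the other 8 genes, 7 kept their direction in all 22, and H2-Aa turned to -0.12 without IL-4 replicate 3, in a range of -0.12 to 0.22 over single arrays left out.

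Of the 10 genes, 2 were called higher and 0 lower under quantile normalization, scaling to the median, both normexp settings and the authors' value table. With only probes detected on all 6 arrays, and with a trend in eBayes, 2 were higher and 1 lower, and with array weights 3 and 3. With no filter on dim probes, with slide as a block and on slide 1 alone 0 were called, where limma called 5, 6 and 1 genes higher and 10, 3 and 0 lower over all. Leaving out 1 array gave 0 to 3 genes of the set higher and 0 to 3 lower, and over all genes 0 to 5812 higher and 0 to 6842 lower, each highest value without PBS replicate 1. Without any other array, at most 3 of all genes were called higher and 0 lower, and 0 of the set.

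Calls over all genes, 240 higher and 757 lower, became 833 and 1804 with quantile normalization, 531 and 1202 with scaling to the median, 107 and 416 with the percentile over commonly detected probes, 2032 and 2026 with normexp and percentile scaling, and 988 and 2108 with normexp and quantiles. They became 674 and 1625 in the authors' table, 1830 and 1978 with only probes detected on all 6 arrays, 117 and 488 with the mean of a gene's probes, 6426 and 7751 with array weights, 2055 and 2115 with a trend, and 127 and 549 with flagged spots kept. With the replicate number as a block, 2 genes of the set were called higher and 0 lower, and 1804 and 1966 over all. The added call is H2-Ob (adjusted p 0.0286), and no other gene of the set changed its call. The causes were not tested.

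Among uncalled genes of the related lists, the sign turned for Irf1 (0.0037), Mif (0.07), Cd274 (0.09) and Stat6 (0.01) in the slide-block fit and on slide 1 alone. Under quantile normalization, normexp with quantiles and the authors' table it turned for Ctss (-0.13, -0.09 and -0.13), Ctsb (-0.20, -0.16 and -0.20) and Cltc (-0.02, -0.06 and -0.0049). It also turned for Ctsb with array weights (-0.08) and without IL-4 replicate 1 (-0.04) and PBS replicates 1 and 3 (-0.02 in both), in a range of -0.04 to 0.08 over single arrays left out, for Cltc and Cd80 with the mean of a gene's probes (-0.0033 and 0.02), for Cd80 with array weights and without PBS replicate 1 (0.07 in both), and for Cd86 with the percentile over commonly detected probes (0.01).

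A single PBS array shares a slide with the IL-4 arrays, so every within-slide value rests on it. H2-Eb2, H2-DMb2, H2-Oa and H2-Aa lay near background, with processed signals of 19.0 to 71.4, where background subtraction weighs most.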
